A study of Oreochromis mossambicus with 12 samples.

Results

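Leukocytes from the tilapia head kidney were given heat-killed Streptococcus agalactiae with or without sodium nitrite, and the comparison described here is what nitrite changed in cells that also received the bacteria. Per the labels, the group with bacteria alone received the killed bacteria at a multiplicity of infection of 1 (bacteria per cell), and the group with both agents received the same bacteria plus sodium nitrite at 1000 μM. The other groups received PBS or sodium nitrite at 1000 μM alone. All cells were Oreochromis mossambicus primary leukocytes, held overnight on collagen-coated plastic in RPMI medium with penicillin, streptomycin and tilapia serum, treated for 12 h and profiled by RNA sequencing. The study holds 12 libraries, 3 per group; the comparison uses 6 of the 12, and sets each library with both agents against the library with bacteria alone that carries the same replicate number in its title. Whether the replicates were separate fish, or separate cultures, is not in the labels; a p-value here measures only how these libraries vary, and that variation may be technical. The bacteria were killed, so no infection took place, and the cell fraction is mixed: fewer cells of a type and less RNA per cell cannot be told apart.

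Nitrite is an intermediate of the nitrogen cycle that builds up in fish ponds. It enters fish through the chloride uptake route of the gill, oxidises the iron of haemoglobin, and can be reduced to nitric oxide, which reacts with thiols. Animal cells meet oxidants and reactive thiol agents in part through the transcription factor Nrf2, which is held down by Keap1 and, once released, raises the genes of glutathione synthesis, NADPH supply and iron handling.

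Expression was given as FPKM, fragments per kilobase of transcript and per library total, summed over the transcripts of each gene. Changes are differences of log2(FPKM + 1), a scale that makes changes at low FPKM look smaller than they are. Of 12423 genes tested, 745 (6%) passed an adjusted p of 0.05 in limma with the replicate number as a block, 452 of them higher with nitrite (3.64%) and 293 lower (2.36%). All 745 changed the same way in each of the 3 pairs, as did 45.1% of all tested genes. The paired fit to these same pairs favours such genes, so their shared sign adds no support to the calls. Most shifts were small: the median log2 change was 0.45 among the rises and -0.41 among the falls, and only 30 rises and 3 falls reached 1. In 272 of the 745 the libraries of both groups did not overlap in FPKM, while 891 genes (7.17%) of all tested did not overlap, 413 higher (3.32%) and 478 lower (3.85%).

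The calls rest on the pairing and on other choices in the fit. Measured as deviations from the group mean, same-numbered libraries went together (r = 0.919, 0.835 and 0.876 across genes), and the fit without the block called 1 gene. With the block kept, 1 gene passed without a filter on low values, 1 with transcripts not summed and 4 with all 4 groups fitted. In each fit that called 1 gene, that gene was lower with nitrite. The 293 falls include LOC100692258, listed at 0 in all 3 libraries with both agents, which can be a failed estimate. LOC100692258 is also 1 of the 3 falls that reached 1 and 1 of the 138 genes given next. Leaving out replicate 1, 2 or 3 with its pair left 194, 269 and 692 calls, and 138 genes were called in the full fit and in each of these 3 fits. On simulated data false calls exceeded the share that the threshold allows, and whether they lay near the threshold was not examined. Below, a gene said to be called throughout is 1 of these 138. For the others the replicates whose removal ended the call are named with the adjusted p without them. With 3 pairs an exact sign-flip test of a single gene cannot go below p = 0.25. The gene lists below were chosen with earlier results of these data known. A list's share beside that of all genes is therefore no test.

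**Figure D1:**
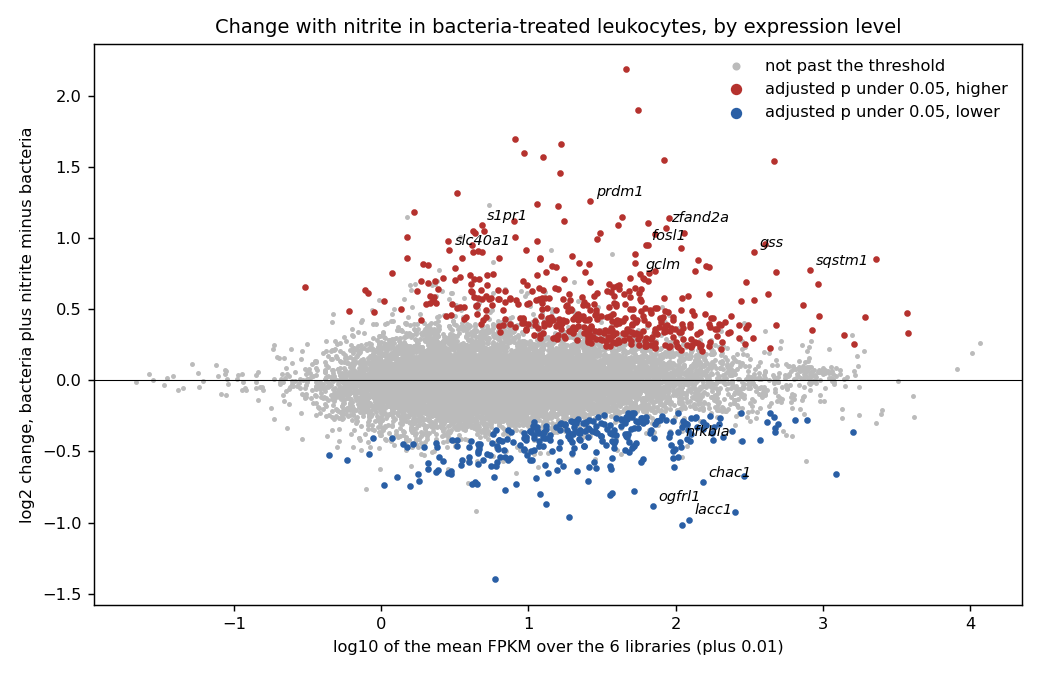
Log2 change (bacteria plus nitrite minus bacteria) of each tested gene against the log10 of its mean FPKM over the 6 libraries, with genes past an adjusted p of 0.05 in red (higher) and blue (lower). Of the labelled genes prdm1 has the largest rise (1.26) and lacc1 the largest fall (-0.98); LOC100692258, listed at 0 in all libraries with both agents, is not drawn.

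Glutathione, the main small thiol of the cell, is made in 2 steps, by glutamate-cysteine ligase (the catalytic subunit gclc and the modifier gclm) and then by glutathione synthetase (gss), and all 3 genes rose with nitrite. Glutathione synthetase had the largest change. In bacteria libraries 1, 2 and 3 gss stood at 256, 275 and 175 FPKM, and with both agents at 511, 546 and 289 FPKM. Every library with both agents lay above every library with bacteria alone, and the log2 change was 0.90 ± 0.07 (SE, limma adjusted p = 0.00291). The modifier subunit gclm was at 35.3, 47.3 and 45.0 FPKM with bacteria and at 63.5, 83.5 and 68.8 FPKM with both agents. Here too the groups did not overlap, and the log2 change was 0.75 ± 0.06 (adjusted p = 0.0049). For the catalytic subunit gclc the values were 32.2, 38.5 and 38.2 FPKM against 43.9, 85.6 and 57.7 FPKM. The lowest value with both agents exceeded the highest with bacteria alone. Pair 2 changed most, and the log2 change was 0.72 ± 0.12 (adjusted p = 0.0266). These 3 genes were called throughout.

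Of 18 tested genes of the glutathione list, 5 rose and 2 fell (7 of 18, beside 6% of all genes tested), while the list's median log2 change was 0.01 against -0.01 over all genes. The other rises were gsr, glutathione reductase, which regenerates the reduced form (0.40 ± 0.08, adjusted p = 0.0392; 0.169 without replicate 1 and 0.115 without replicate 2), and gpx4, the peroxidase that reduces lipid peroxides (0.44 ± 0.09, adjusted p = 0.0372; between 0.0769 and 0.125 without any 1 replicate). The cystine importer slc7a11, which supplies the cysteine, did not pass: its log2 change was 0.48 ± 0.11 (adjusted p = 0.0513), and it passed without replicate 3 (0.0074). Of the falls, chac1, which breaks glutathione down inside the cell, was called throughout. It went from 225, 152 and 194 FPKM with bacteria to 118, 93.2 and 134 FPKM with both agents, a log2 change of -0.72 ± 0.08 (adjusted p = 0.00836). No library with both agents reached the lowest library with bacteria alone. The other fall was mgst3, a microsomal glutathione transferase (-0.39 ± 0.09, adjusted p = 0.0495; between 0.0603 and 0.122 without any 1 replicate).

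**Figure D2:**
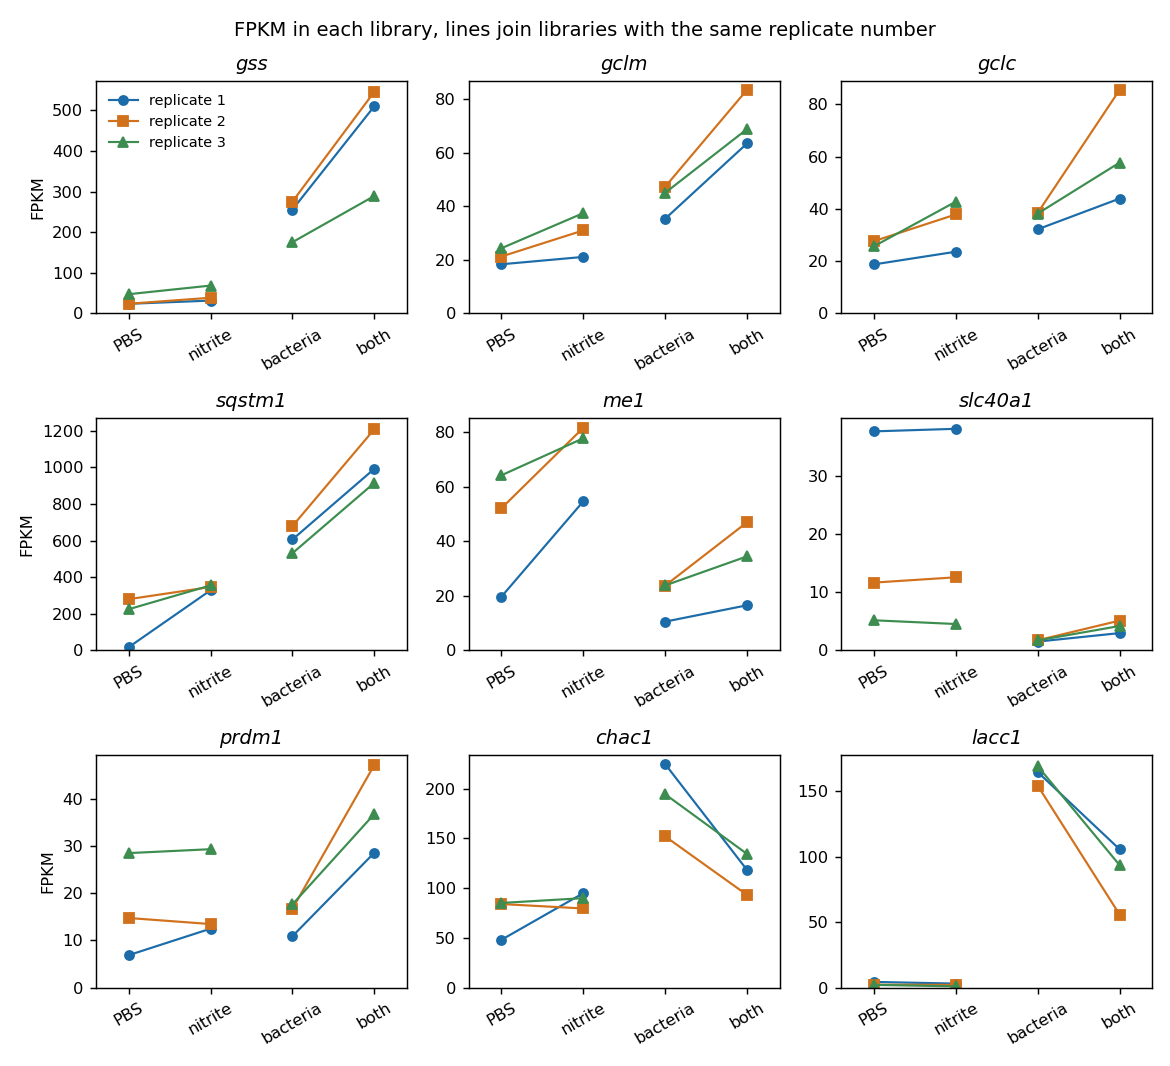
FPKM of 9 genes in all 12 libraries, by group on the x axis (both, bacteria plus nitrite), with lines joining the nitrite library to its partner of the same replicate number. gss, gclm, gclc, sqstm1, me1, slc40a1 and prdm1 rise and chac1 and lacc1 fall in each of the 3 pairs with bacteria; PBS replicate 1 is low for sqstm1, at 18.0 FPKM.

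Among the regulators of Nrf2, 1 of 6 tested genes rose, beside 3.64% of all genes tested. This was sqstm1 (p62), a cargo receptor of autophagy that binds Keap1, at 606, 680 and 531 FPKM with bacteria and 993, 1209 and 916 FPKM with both agents. The groups did not overlap, the log2 change was 0.77 ± 0.05 (adjusted p = 0.00291), and the call held throughout. The factor itself, nfe2l2, had a log2 change of -0.06 ± 0.05 (adjusted p = 0.527), and keap1 one of 0.23 ± 0.06 (adjusted p = 0.0695). Of 6 tested genes that supply NADPH, 1 rose: me1, cytosolic malic enzyme, was at 10.6, 23.8 and 23.9 FPKM with bacteria and at 16.6, 47.0 and 34.5 FPKM with both agents. The groups overlapped, since pair 1 was low in both, but each pair rose (0.69 ± 0.09, adjusted p = 0.0144; called throughout). The pentose phosphate genes pgd (0.27 ± 0.07, adjusted p = 0.0753) and taldo1 (0.25 ± 0.06, adjusted p = 0.0691) did not pass, although both did without replicate 3 (0.0205 and 0.0229).

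The thioredoxin, peroxiredoxin and superoxide enzymes gave no call: 0 of 12 tested genes passed. A positive log2 change was seen in 2 of 12, beside 5921 of all 12423 genes tested. The list holds 27 names, of which 15 were found in the data. Thioredoxin reductase txnrd1 was not tested, so the lack of calls does not cover it. Sulfiredoxin (srxn1), another textbook Nrf2 target, was at 1.42, 1.52 and 1.96 FPKM with bacteria and 1.37, 1.27 and 1.52 FPKM with both agents (-0.14 ± 0.09, adjusted p = 0.43), so its groups overlapped. The cytosolic superoxide dismutase sod1 had a log2 change of 0.05 ± 0.05 (adjusted p = 0.576) and the mitochondrial sod2 one of -0.20 ± 0.09 (adjusted p = 0.253). The peroxiredoxin prdx5 had a log2 change of -0.14 ± 0.06 (adjusted p = 0.194).

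Iron and heme genes moved both ways, with 2 of 18 tested genes up and 2 down, beside 3.64% and 2.36% of all genes tested. Ferroportin (slc40a1), the only known cellular iron exporter, was low with bacteria (1.53, 1.76 and 1.74 FPKM) and higher with both agents (2.99, 5.14 and 4.21 FPKM). The groups did not overlap, and the log2 change was 0.91 ± 0.11 (adjusted p = 0.0125; called throughout). Biliverdin reductase A (blvra), which acts after heme oxygenase, rose by 0.53 ± 0.08 (adjusted p = 0.0214; 0.0833 without replicate 1). Biliverdin reductase B (blvrb), a flavin reductase that can also reduce methaemoglobin, fell by 0.30 ± 0.06 on the log2 scale (adjusted p = 0.0352; between 0.0684 and 0.122 without any 1 replicate), and the metalloreductase steap4 fell by 0.51 ± 0.07 (adjusted p = 0.0136; 0.0655 without replicate 1). Heme oxygenase 1 (hmox1) differed between pairs: it was at 236, 289 and 184 FPKM with bacteria and at 344, 535 and 158 FPKM with both agents. Pairs 1 and 2 were higher with nitrite and pair 3 was lower, and the gene did not pass (0.40 ± 0.18, adjusted p = 0.252; 0.00923 without replicate 3).

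Both metal exporters described here rose. Of the 3 tested metal response genes, 1 rose, beside 3.64% of all genes tested. This was the zinc exporter slc30a1, at 28.8, 43.7 and 32.7 FPKM with bacteria and at 47.3, 67.5 and 46.5 FPKM with both agents. The libraries with both agents all lay above those with bacteria alone, with a log2 change of 0.60 ± 0.06 (adjusted p = 0.00692, called throughout). The copper exporter atp7a, chosen after its values were seen, rose by 0.66 ± 0.09 (adjusted p = 0.0148; called throughout).

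Nitrite is chemically linked to nitric oxide, which cells make from arginine. Of 9 tested nitric oxide and arginine genes, 2 rose and 1 fell, beside 3.64% and 2.36% of all genes tested. The y+L amino acid transporter subunit slc7a7, which exports arginine, was at 32.0, 36.8 and 47.4 FPKM with bacteria and at 45.9, 62.1 and 68.0 FPKM with both agents, a log2 change of 0.59 ± 0.06 (adjusted p = 0.00947; called throughout) with overlapping groups. Ornithine decarboxylase odc1, the first enzyme of polyamine synthesis, rose by 0.35 ± 0.07 (adjusted p = 0.0401; 0.151 without replicate 1 and 0.13 without replicate 2). Arginase 2 (arg2), which splits arginine to ornithine, fell by 0.29 ± 0.05 (adjusted p = 0.0232; 0.143 without replicate 1 and 0.0776 without replicate 2). Sulfite oxidase suox, a molybdenum enzyme that can reduce nitrite in mammals, was at 71.3, 80.1 and 63.7 FPKM with bacteria and 66.1, 53.2 and 76.5 FPKM with both agents. It did not pass (-0.14 ± 0.14, adjusted p = 0.6).

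Among genes of protein folding and breakdown several rose, most by small amounts, and no list member fell. The largest rise was zfand2a, a zinc-finger partner of the proteasome that is induced by arsenite in mammals. It stood at 53.3, 64.2 and 45.4 FPKM with bacteria and at 121, 149 and 82.0 FPKM with both agents, with no overlap, and rose by 1.07 ± 0.08 (adjusted p = 0.00291; called throughout). Of 19 tested heat shock and chaperone genes, 4 rose and 0 fell, and 15 had a positive change (median 0.13). The ER co-chaperone dnajb9 rose by 0.53 ± 0.06 (adjusted p = 0.0112; called throughout). The ER chaperone hsp90b1 rose by 0.47 ± 0.07 (adjusted p = 0.0181; 0.0799 without replicate 1), and the cytosolic hsp70, at 1308 to 1600 FPKM with bacteria, by 0.25 ± 0.06 (adjusted p = 0.0492; between 0.0727 and 0.203 without any 1 replicate). Of 40 proteasome genes, 7 rose, 0 fell and 39 had a positive change, with a median of 0.18 against -0.01 over all genes. Of all 12423 genes tested, 3.64% rose and 5921 had a positive change. psmd3, a lid subunit, rose by 0.33 ± 0.05 (adjusted p = 0.0214; 0.0853 without replicate 1 and 0.073 without replicate 2). Leaving out replicate 1, 2 or 3 gave 0, 0 and 2 proteasome calls, with 39, 37 and 40 members positive. Quantile normalization gave 3 proteasome calls, with 39 members positive.

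The list of ER stress and amino acid response genes, which holds targets of the unfolded protein response and of amino acid shortage, split. Of 25 tested 3 rose and 4 fell, beside 3.64% and 2.36% of all genes tested. The call of 1 of these 7 genes held throughout. The ER genes manf (0.39 ± 0.06, adjusted p = 0.0218), a secreted factor, and atf6 (0.25 ± 0.05, adjusted p = 0.0387), a membrane-bound stress sensor, rose. Neither call survived without replicate 1 (0.108 and 0.204) or replicate 2 (0.0642 and 0.0925), and that of atf6 also ended without replicate 3 (0.0737). The falls, besides chac1, were psat1 and asns, which make serine and asparagine, and slc7a5, which imports large neutral amino acids. psat1 was at 36.4, 32.1 and 62.1 FPKM with bacteria and at 26.2, 21.7 and 49.99 FPKM with both agents, lower in each pair with overlapping groups (-0.44 ± 0.06, adjusted p = 0.0176; 0.0803 without replicate 1). asns fell by 0.31 ± 0.06 (adjusted p = 0.0304; 0.154 without replicate 1 and 0.0933 without replicate 2), and slc7a5 by 0.32 ± 0.07 (adjusted p = 0.0411; 0.186 without replicate 1 and 0.138 without replicate 2). Of 19 tested aminoacyl-tRNA synthetases, which charge tRNAs with amino acids, 18 had a change below 0 and 1 above it (median -0.13). Of all 12423 genes tested, 5921 had a change above 0. Among the synthetases 0 rose and 2 fell, beside 2.36% of all genes that fell. These were nars (-0.35 ± 0.05, adjusted p = 0.0176; 0.102 without replicate 1) and kars (-0.38 ± 0.06, adjusted p = 0.0208; 0.0813 without replicate 1 and 0.055 without replicate 2).

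**Figure D3:**
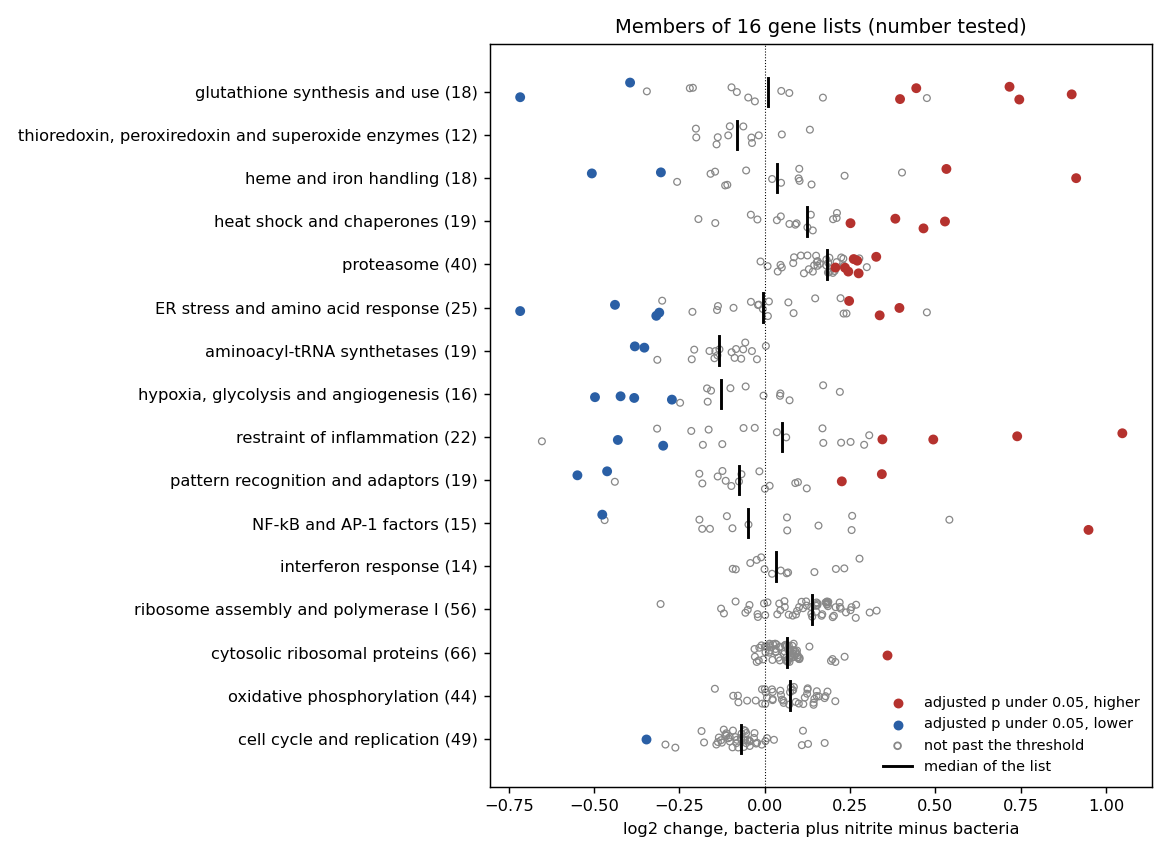
Log2 change of each tested member of 16 gene lists (x axis; y axis, list with the number tested), with filled points for genes past an adjusted p of 0.05 and a bar at the list's median. Proteasome members lie right of 0 in 39 of 40 cases (median 0.18) and aminoacyl-tRNA synthetases left of it in 18 of 19 (median -0.13). Other lists lean as well, such as ribosome assembly with 46 of 56 members right of 0 and cell cycle with 7 of 49.

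Genes of bacterial sensing and inflammation moved both ways. The largest fall among genes with a name was lacc1, a macrophage enzyme of purine metabolism linked to inflammatory disease in humans. It was at 165, 154 and 169 FPKM with bacteria and at 106, 55.8 and 93.6 FPKM with both agents, so the groups were well apart, and fell by 0.98 ± 0.14 (adjusted p = 0.0175; called throughout). The cytosolic receptor for bacterial muramyl dipeptide, nod2, was at 143, 94.7 and 103 FPKM with bacteria and at 98.2, 52.6 and 85.5 FPKM with both agents. Its groups overlapped, and it fell by 0.55 ± 0.10 (adjusted p = 0.0299; 0.107 without replicate 1). The itaconate enzyme acod1 was at 1146, 898 and 709 FPKM with bacteria and at 852, 441 and 593 FPKM with both agents, a log2 change of -0.57 ± 0.14 that did not pass (adjusted p = 0.0604; 0.0289 without replicate 3). Of 19 pattern recognition genes, 2 rose and 2 fell, beside 3.64% and 2.36% of all genes tested. Of the 9 tested eicosanoid genes 1 fell: alox5, which starts leukotriene synthesis, did so by 0.55 ± 0.09 (adjusted p = 0.0262; called throughout), while ptgs2, which starts prostaglandin synthesis, did not pass (0.08 ± 0.08, adjusted p = 0.577).

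Of 7 tested cytokine genes, 2 fell and 0 rose, beside 2.36% and 3.64% of all genes tested. The list holds 39 names, of which 11 were found in the data, so most of it was not examined. tnfsf13b (BAFF), a survival factor for B cells, was at 36.2, 34.2 and 30.9 FPKM with bacteria and at 26.4, 22.2 and 22.2 FPKM with both agents, with no overlap (-0.50 ± 0.06, adjusted p = 0.0109; called throughout). ebi3, a shared subunit of the cytokines IL-27 and IL-35, fell by 0.32 ± 0.06 (adjusted p = 0.0327; 0.161 without replicate 1 and 0.105 without replicate 2). The neutrophil chemokine il-8, among the most abundant transcripts, was at 3539, 2919 and 1656 FPKM with bacteria and at 3297, 2305 and 1464 FPKM with both agents, and the difference did not pass (-0.21 ± 0.07, adjusted p = 0.127). The interleukin subunit il12b did not pass either (-0.42 ± 0.12, adjusted p = 0.0966; 0.0107 without replicate 3), nor did the anti-inflammatory il10 (0.30 ± 0.18, adjusted p = 0.385).

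Among the factors downstream, fosl1, an AP-1 subunit, doubled on the raw scale in pairs 1 and 2. Its values were 39.7, 57.5 and 29.0 FPKM with bacteria and 79.7, 117 and 52.7 FPKM with both agents. The groups overlapped because the pairs started from different levels, yet the pairs rose alike (0.95 ± 0.06, adjusted p = 0.00256; called throughout). Of 15 NF-kB and AP-1 genes, 1 rose and 1 fell, the latter being batf, another AP-1 subunit (-0.48 ± 0.10, adjusted p = 0.0471; 0.187 without replicate 1 and 0.131 without replicate 2). Of 22 genes that restrain inflammation, 4 rose and 2 fell. Beside both of these lists, 3.64% of all genes tested rose and 2.36% fell. The inhibitors of NF-kB nfkbia and nfkbie fell, by 0.43 ± 0.06 (adjusted p = 0.0177; 0.0549 without replicate 1) and by 0.30 ± 0.05 (adjusted p = 0.029; 0.134 without replicate 1 and 0.107 without replicate 2). Rises were seen for dusp4, a MAP kinase phosphatase at 2.16, 3.57 and 2.34 FPKM with bacteria and 3.54, 12.1 and 6.18 FPKM with both agents (1.05 ± 0.18, adjusted p = 0.0246; 0.0541 without replicate 3), and for zfp36l2, which promotes decay of AU-rich mRNA (0.74 ± 0.14, adjusted p = 0.0335; 0.0861 without replicate 1). The ubiquitin-editing enzyme tnfaip3 did not pass (-0.16 ± 0.06, adjusted p = 0.137).

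Of 16 tested genes of hypoxia, glycolysis and angiogenesis, 4 fell and 0 rose, with a median of -0.13. Of all genes tested 2.36% fell and 3.64% rose, with a median of -0.01. adm, the vasodilator adrenomedullin, was at 106, 132 and 103 FPKM with bacteria and at 85.4, 75.8 and 78.2 FPKM with both agents, with no overlap (-0.50 ± 0.09, adjusted p = 0.0313; 0.058 without replicate 1). bnip3, a mitophagy receptor (-0.42 ± 0.09, adjusted p = 0.0387), egln3, an oxygen-sensing prolyl hydroxylase (-0.38 ± 0.08, adjusted p = 0.0378), and vegfa, an angiogenic factor (-0.27 ± 0.05, adjusted p = 0.0302), fell as well. The call of bnip3 ended without replicate 1 (0.13) or 3 (0.0748). Those of egln3 (0.0619 to 0.143) and vegfa (0.0596 to 0.128) ended without any 1 replicate. Without replicate 1, 2 or 3 the list had 0, 2 and 1 calls.

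The largest rise among genes with a name was prdm1 (Blimp-1), a repressor that drives plasma cell differentiation and also acts in myeloid cells. It was at 10.9, 16.7 and 17.7 FPKM with bacteria and at 28.6, 47.2 and 36.8 FPKM with both agents. The libraries with both agents were all higher than any with bacteria alone. The log2 change was 1.26 ± 0.09 (adjusted p = 0.00291, called throughout). Next came ocstamp, a membrane protein of osteoclast fusion in mammals (1.22 ± 0.24, adjusted p = 0.0368), whose call ended without replicate 1 (0.128) or replicate 2 (0.0885). dhrs1, a short-chain dehydrogenase, was at 30.1, 49.5 and 41.8 FPKM with bacteria and at 75.6, 119 and 71.9 FPKM with both agents (1.11 ± 0.10, adjusted p = 0.00596; called throughout), with no overlap. Its relative dhrs12 rose by 0.76 ± 0.07 (adjusted p = 0.00596; called throughout). s1pr1, a receptor of the lipid sphingosine 1-phosphate that guides lymphocyte movement, was at 0.90, 4.21 and 3.05 FPKM with bacteria and at 3.10, 9.91 and 7.64 FPKM with both agents (1.09 ± 0.08, adjusted p = 0.00291; called throughout). Its groups overlapped at these low levels.

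Further rises called throughout were noct, nocturnin (0.95 ± 0.08, adjusted p = 0.00441), and axl, a receptor tyrosine kinase for the uptake of dying cells (0.92 ± 0.10, adjusted p = 0.0107). The coagulation and protease genes f3 and plau rose too, 2 of the 4 tested in their list, beside 3.64% of all genes tested. Both were called throughout. f3, tissue factor, which starts coagulation, was at 5.15, 7.20 and 12.7 FPKM with bacteria and at 10.8, 13.7 and 22.4 FPKM with both agents (0.85 ± 0.07, adjusted p = 0.00443). plau, urokinase, rose by 0.76 ± 0.11 (adjusted p = 0.0181) from levels that differed widely between pairs, 9.95, 40.0 and 85.5 FPKM with bacteria. gpat3, an enzyme of triglyceride synthesis, rose by 0.61 ± 0.06 (adjusted p = 0.00692; called throughout), and the lipid droplet coat protein plin2 by 0.37 ± 0.05 (adjusted p = 0.0155; 0.0683 without replicate 1), the 2 calls among 14 tested genes of lipid uptake and storage.

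Falls outside the lists were led by ogfrl1, a relative of the opioid growth factor receptor, at 134, 64.9 and 67.6 FPKM with bacteria and 87.8, 33.04 and 31.3 FPKM with both agents. Replicate 1 was the highest in both groups, so they overlapped, and the log2 change was -0.88 ± 0.09 (adjusted p = 0.0076; called throughout). kctd12, known as an auxiliary subunit of GABA-B receptors (-0.78 ± 0.14, adjusted p = 0.0301), klf2, a transcription factor that quiets myeloid cells in mammals (-0.69 ± 0.10, adjusted p = 0.0192), and marcks, an actin-binding substrate of protein kinase C (-0.63 ± 0.09, adjusted p = 0.0174), also fell and were called throughout. The files do not pair LOC identifiers with names, and 414 of the 745 calls carry one. Only LOC identifiers called throughout, with the higher group averaging 50 FPKM or more, were ranked here. Among these, LOC106098416 (2.18 ± 0.26, adjusted p = 0.0109) and LOC100695448 (1.902 ± 0.18, adjusted p = 0.00596) rose most. LOC100702124 (-1.02 ± 0.07, adjusted p = 0.00291) and LOC100710498 (-0.92 ± 0.11, adjusted p = 0.0116) fell most, leaving aside LOC100692258, which is listed at 0 with both agents.

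Several lists held few or no calls. No gene passed in cholesterol synthesis (21 tested), DNA damage response (32), interferon response (14), antigen presentation (9), oxidative phosphorylation (44), ribosome assembly (56), ion transport (15), chromatin enzymes (35) or NADPH oxidase (2). Some lists with few or no calls still leaned one way. A positive change was seen in 46 of 56 ribosome assembly, 36 of 44 oxidative phosphorylation and 59 of 66 cytosolic ribosomal protein genes. It was seen in 7 of 49 cell cycle and 9 of 35 chromatin genes, beside 5921 of all 12423 tested. These leans were small, with medians of 0.06 for cytosolic ribosomal proteins and 0.07 for oxidative phosphorylation. Quantile normalization left 46 of 66 and 30 of 44 of these 2 lists positive. It gave 47 of 56 for ribosome assembly, 6 of 49 for cell cycle and 9 of 35 for chromatin. The single call in 66 cytosolic ribosomal proteins was rps28 (0.36 ± 0.07, adjusted p = 0.038), and it ended without replicate 1 (0.141) or 3 (0.0674). In 49 cell cycle genes it was gins1 (-0.35 ± 0.08, adjusted p = 0.0479), which ended without any 1 replicate (0.123 to 0.183). Among 23 apoptosis genes, the pro-apoptotic bcl2l11 (0.42 ± 0.05, adjusted p = 0.0131) and the stress gene gadd45b (0.56 ± 0.09, adjusted p = 0.0206) rose and tp53inp1, a p53 target, fell (-0.60 ± 0.09, adjusted p = 0.0211). Each of these 3 calls ended without replicate 1 (0.0624, 0.081 and 0.058), and that of tp53inp1 also without replicate 2 (0.055). Of 30 lysosomal genes 3 rose and 15 had a positive change. Of these rises asah1, acid ceramidase, was called throughout (0.48 ± 0.05, adjusted p = 0.00724). Beside the lists of this paragraph, 3.64% of all genes tested rose and 2.36% fell.

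Defining markers of leukocytes were present in the 6 libraries. The myeloid factor spi1 was at 502 FPKM in the median bacteria library and the receptor of granulocyte growth csf3r at 151 FPKM. Both fell with nitrite, spi1 by 0.26 ± 0.05 (adjusted p = 0.0378; 0.0648 to 0.152 without any 1 replicate) and csf3r by 0.26 ± 0.05 (adjusted p = 0.0266; 0.147 without replicate 1 and 0.0929 without replicate 2). They were the sole calls among 4 tested macrophage and 4 tested neutrophil markers. Of all genes tested 2.36% fell and 3.64% rose. The median change was -0.21 for the macrophage markers, 1 of 4 positive, and 0.15 for the neutrophil markers, 3 of 4 positive and so opposite in sign to csf3r. The summed FPKM of the 5 macrophage markers in the table ran from 652 to 768 with bacteria and from 542 to 701 with both agents, and the 4 neutrophil markers from 661 to 1270 and from 740 to 1200. The myeloid progenitor factor cebpa rose by 0.42 ± 0.09 (adjusted p = 0.0385; 0.102 without replicate 1 and 0.0784 without replicate 2), the 1 call among 5 tested progenitor markers, of which 2 had a positive change and whose median was -0.18. Eosinophil peroxidase epx was at 175, 102 and 102 FPKM with bacteria and 156, 70.4 and 52.9 FPKM with both agents (-0.54 ± 0.13, adjusted p = 0.061; 0.0391 without replicate 1). None of the 7 B cell, 6 T cell, 7 thrombocyte or 2 erythroid markers tested passed. Summed B cell markers ran from 155 to 170 FPKM with bacteria and from 137 to 163 with both agents, T cell markers from 33.8 to 120 and from 33.4 to 79.6, thrombocyte markers from 69.4 to 119 and from 83.3 to 120, and erythroid markers from 3.71 to 4.26 and from 2.28 to 3.22. Fibroblast markers ran from 12.4 to 22.1 and from 15.8 to 22.7 FPKM, endothelial markers from 39.2 to 80.5 and from 30.7 to 85.0, and interrenal and kidney tubule markers from 0.87 to 1.23 and from 0.96 to 1.25. Of the macrophage markers mrc1 was listed at 0 in all 3 bacteria libraries. Listed at 0 throughout a group were also 1 (bacteria) and 2 (both agents) of 10 thrombocyte markers, 4 and 5 of 9 fibroblast markers, 3 and 2 of 9 endothelial markers, and 3 and 4 of 10 interrenal and kidney tubule markers. The part of cell composition in the gene changes was not tested.

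The same step without bacteria, nitrite against PBS, uses other libraries and shows what nitrite did in cells that were not stimulated. In limma with the same block no gene passed an adjusted p of 0.05, and 225 had an unadjusted p under 0.05. PBS replicate 1 stood apart from the other PBS libraries, with 4.99% of its FPKM sum in ribosomal protein genes. Without it and its partner, in a fit of the remaining 5 pairs chosen after seeing the data, 5 genes passed. One of them was nrp1, neuropilin 1, with a log2 change of 0.63 ± 0.07 (adjusted p = 0.0478), and it rose with bacteria too (0.48 ± 0.05, adjusted p = 0.00692; called throughout, and chosen after its values were seen). Of the 745 genes called with bacteria, 66.7% had the same sign in nitrite minus PBS, against 57.4% of all tested genes.

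The 3 glutathione synthesis genes were higher with nitrite in each of the 3 pairs without bacteria as well. gss was at 23.5, 23.6 and 47.2 FPKM in PBS and at 31.4, 38.5 and 68.4 FPKM with nitrite alone, pairwise log2 changes of 0.40, 0.68 and 0.53. Its levels with bacteria were all above these. gclm had pairwise changes of 0.19, 0.53 and 0.60 and gclc of 0.32, 0.44 and 0.71. In the fit of 5 pairs their adjusted p without bacteria were 0.0886 for gss, 0.0869 for gclm and 0.322 for gclc, so none passed. fosl1 was higher in each pair (1.03, 0.42 and 0.72), as was slc30a1 (1.82, 0.48 and 0.47), where pair 1 rests on PBS replicate 1.

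**Figure D4:**
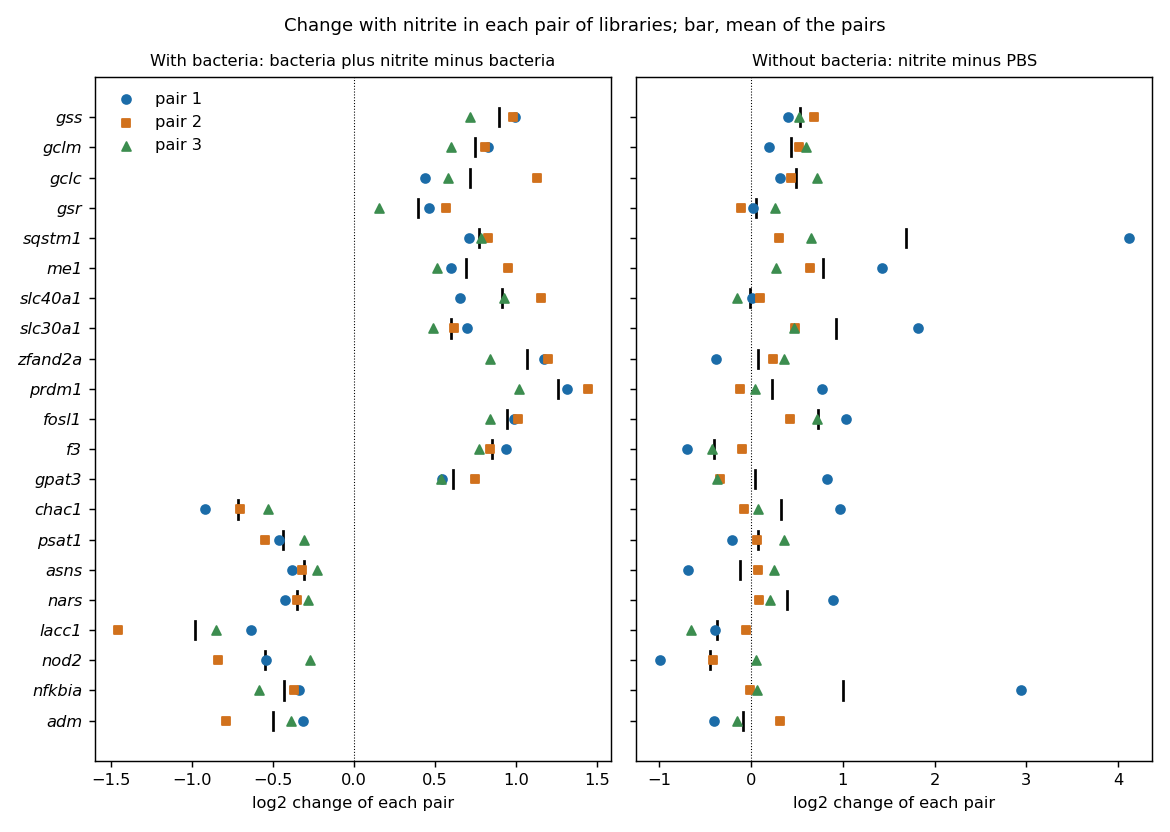
Log2 change in each pair of libraries for 21 genes, with bacteria (left) and without (right), on x axes of different length; points are pairs and bars their means. Pair 1 without bacteria rests on PBS replicate 1, as in the sqstm1 value of 4.12.

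Whether nitrite acted differently in stimulated and unstimulated cells was tested as an interaction over all 12 libraries. In that test 192 genes had an unadjusted p under 0.05, fewer than the 621 expected by chance. The interaction called 1 gene (0.00805% of those tested), LOC100692258. This gene was at 17476, 20799 and 18950 FPKM with bacteria, between 3.68% and 4.21% of each library's sum, at 7295 to 9527 FPKM in PBS and at 9187 to 10335 FPKM with nitrite alone, and it was listed at 0 in all 3 libraries with both agents. It was the only gene listed at 0 in every library of one of these groups and at 20 FPKM or more in every library of its partner. An exact 0 in such a file can be a failed estimate, so no fold is given. In the fit of 5 pairs 7 genes passed, among them prdm1 (interaction 1.30 ± 0.14, adjusted p = 0.0214), gpat3 (0.97 ± 0.10, adjusted p = 0.0211) and f3 (1.12 ± 0.14, adjusted p = 0.0474). Without bacteria f3 was low, at 1.36 to 3.97 FPKM. For prdm1, PBS libraries 2 and 3 stood at 14.8 and 28.5 FPKM and their nitrite partners at 13.5 and 29.4 FPKM, close to equal, whereas both of these pairs rose with bacteria. The interaction of gss did not pass in that fit (0.30 ± 0.11, adjusted p = 0.479), nor did that of chac1 (-0.72 ± 0.12, adjusted p = 0.11).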

How the data were processed

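RNA sequencing of 12 libraries was used, 6 of them in the comparison with bacteria. The authors deposited FPKM per transcript, to 2 decimals, with 58070 transcripts under 28921 gene symbols. Per the submitters' processing notes, the tools were HISAT2 2.0.1, HTSeq 0.6.1 and Trimmomatic 0.30, with no role given. Build, annotation and FPKM tool: not given in the sources used here. FPKM were summed per symbol, genes averaging 1 FPKM or more in the 12 libraries were kept, and log2(FPKM + 1) was fitted in R 4.3.3 by limma 3.58.1 (trended empirical Bayes, two-sided, group plus replicate number as a block, 2 residual degrees of freedom among the 6 libraries). Benjamini-Hochberg adjustment ran over all 12423 genes, with a threshold of 0.05; every adjusted p in the text comes from limma. The fit was tested on simulated data, where its false calls exceeded the nominal share.

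Replicate numbers come from the titles. The comparison was defined on libraries with the same number, so the pairing did not follow from the correlations given here. The deviations of same-numbered libraries correlated at 0.835 to 0.919. Those of different numbers correlated at -0.684 to -0.113. Deviations from a group mean sum to 0, so these must lean negative once the same-numbered ones are positive. They add no separate support for the pairing.

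FPKM hold no counts, so absolute depth is unknown; steps in the low values of 235 genes gave a ratio of 1.11 between the deepest and the shallowest of the 6 libraries. FPKM sums ran from 471752 to 501006, ribosomal protein genes took 9.08% to 12.4% with bacteria and 9.52% to 13.2% with both agents, and 0 pairs of libraries were identical.

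The comparison, its 37 gene lists, its marker lists and the naming rule were chosen with earlier results of these data known. The rule takes the 15 largest rises and 15 largest falls past the threshold with 3 pairs of one sign, an average of 5 FPKM or more in the higher group and no LOC identifier. It adds, per list, the 4 members of lowest adjusted p, and a panel of 25 names (24 tested, all but txnrd1). It names 177 genes; which of them the text gives was decided with their values in view. List members were found by symbol, and wrong matches were taken out by hand once the table was open. No gene sequences were used.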

Additional observations from a re-analysis of the deposited data

Results flagged for a closer look

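For 7 of 125 genes named in the comparison the 3 pairs with bacteria moved one way with nitrite and the 3 pairs without bacteria the other way. For 37 of the 125 all 6 pairs moved one way, as they did for 1402 of the 12423 genes tested. These shares do not compare like with like. Of the 125 genes 100 were called, and every called gene had 3 pairs of one sign with bacteria. Among all 12423 genes tested 5608 had that. The share of all genes with opposite pairs was not counted. The difference as seen this way was not tested. In limma's interaction over all 12 libraries none of the 7 passed (adjusted p = 0.963 for each), and pair 1 without bacteria rests on PBS replicate 1, which stands apart. The interaction, the log2 change with bacteria minus that without, was 1.26 for tissue factor f3. This gene rose with bacteria (0.94, 0.84 and 0.77 by pair) and was lower with nitrite alone (-0.69, -0.10 and -0.43). Its level without bacteria was low, at 2.82, 3.81 and 3.97 FPKM in PBS and 1.36, 3.49 and 2.70 FPKM with nitrite. The interaction was -1.06 for the itaconate enzyme acod1, whose level without bacteria did not exceed 2.95 FPKM. The heme and iron genes blvrb and steap4 had interactions of -0.58 and -0.59, and steap4 was at 0.31 to 1.53 FPKM without bacteria. The asparaginyl-tRNA synthetase nars had one of -0.75 and the replication gene gins1 one of -1.23, with PBS replicate 1 at 0.65 FPKM for gins1. For sod1 the interaction of 0.52 comes mostly from pair 1 without bacteria (-1.34), and its 3 pairs with bacteria moved by 0.04, 0.03 and 0.09.

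LOC100692258 had an interaction of -14.44 on the log2 scale, the one gene that passed that test. The size reflects values listed at 0 in all 3 libraries with both agents and is no measure of a fold.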

How the results depend on the processing

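The paired comparison with bacteria called 745 genes. Counts stayed within 1.5 times of this with pseudocounts of 0.1 (736) and 3 (737), median-ratio scaling (818), quantile normalization (755) and robust empirical Bayes (816). So did the count with a minimum mean of 5 FPKM, 827 of 8263 genes, a larger share of fewer genes. The shares set beside the lists cover all 12423 genes, also those of low level. Without the replicate block 1 gene passed (349 at an unadjusted p under 0.05, where 621 would be expected by chance). With other choices 1 passed without a filter on low values and 1 with transcripts not summed. With all 4 groups 4 passed with the block and 1 without it. In each fit that called 1 gene, that gene was lower with nitrite. With each of the 6 pairs as a block over all 12 libraries, a choice made after seeing the data, 5 passed; without the pair of PBS replicate 1 and nitrite replicate 1, 814 passed, 671 of them shared with the 745. Leaving out 1 replicate gave 194 to 692 calls. In the fit of 5 pairs nitrite against PBS called 5 genes and the interaction 7. The cause of these differences was not tested. Of 125 genes followed by name, 100 passed. Of these 100, 97 still passed with a pseudocount of 0.1, 93 with quantile normalization, and 0 without the filter, without the block or with all 4 groups; 40 passed without each replicate in turn. Their sign did not change in the settings that tested them, which for the leave-outs follows from 3 pairs of one sign. Of genes that did not pass, 3 changed sign: suox without replicate 2 (0.0759; leave-one-out range -0.345 to 0.0759), abtb2 without replicate 2 (0.127; -0.213 to 0.127) and bcl2 without replicate 1 (-0.0166; -0.0166 to 0.036). With 3 pairs the error of a single gene leans on the spread of all genes, and the depth behind an FPKM value is unknown.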

Other observations

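Some genes outside the lists and the naming rule that were called in the full fit and without each replicate in turn are given here. They were chosen after their values were seen, and not all such genes are described. Besides s1pr1 and asah1, sgpl1, the lyase that breaks down sphingosine 1-phosphate, rose: it was at 46.8, 83.9 and 66.8 FPKM with bacteria and at 60.9, 146 and 99.2 FPKM with both agents, higher in each pair with overlapping groups (0.58 ± 0.08, limma adjusted p = 0.0166). rfk, riboflavin kinase, which makes the flavin cofactor FMN, rose by 0.63 ± 0.07 (adjusted p = 0.0109). fam213b, a thioredoxin-like prostamide synthase, was at 49.1, 45.9 and 43.0 FPKM with bacteria and at 74.6, 86.9 and 67.4 FPKM with both agents, with no overlap (0.71 ± 0.07, adjusted p = 0.00711). abhd4, a phospholipase of N-acyl phospholipid breakdown, rose by 0.64 ± 0.08 (adjusted p = 0.013). Among the falls were dok3, an adaptor that restrains immune receptor signalling (-0.47 ± 0.06, adjusted p = 0.0113), and ppt2, a lysosomal thioesterase (-0.47 ± 0.07, adjusted p = 0.0177).

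The 3 pairs did not move by equal amounts. Over the 452 called rises the median log2 change was 0.44 in pair 1, 0.52 in pair 2 and 0.38 in pair 3. For the same genes the median without bacteria was -0.04, 0.24 and 0.12.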
